A study of Gallus gallus with 10 samples.

Results

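The ovalbumin gene family of the chicken comprises 3 genes, OVAL, OVALX and OVALY, which were picked by gene symbol from the 29558 genes of the count table. OVAL encodes ovalbumin, the main protein of egg white, OVALX the ovalbumin-related protein X and OVALY the ovalbumin-related protein Y. Their transcripts were measured by RNA sequencing of whole magnum, the oviduct segment that lays egg white around the yolk, in broiler breeder hens (Gallus gallus) of 2 ages. The 50 weeks group (5 hens, declining lay) was set against the 35 weeks group (5 hens, peak lay), and every hen had an egg in the magnum. No treatment other than age is named in the labels, and the titles give every library a different bird number. The series asks how the magnum transcriptome varies between these stages of lay.

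Ovalbumin and its relatives X and Y are clade B serpins, a family of mostly intracellular protease inhibitors, but all 3 are secreted into egg white. Ovalbumin itself has lost inhibitory activity and is regarded mainly as a store of amino acids for the embryo, protein Y is a glycosylated relative, and protein X binds heparin and has antibacterial activity. The tubular gland cells of the magnum make them, and the OVAL promoter is a classic model of induction by oestrogen, progesterone and glucocorticoids.

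The 3 genes lie side by side on chromosome 2 (GRCg7b, RefSeq coordinates), within 38.7 kb. OVAL (ENSGALG00010011679) spans 67424691 to 67432269, OVALY (ENSGALG00010011686) spans 67442585 to 67453942, and OVALX (ENSGALG00010011714) spans 67456353 to 67463354. No other annotated gene overlaps any of them. The gap between OVAL and OVALY is 10315 bases and the gap between OVALY and OVALX is 2410 bases. They are paralogs, so reads from stretches they share could be split between them, and the sources used here do not give how the authors' counting treated such reads.

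Other clade B serpins flank the family, and those with a matched symbol were barely counted. SERPINB6, a broadly expressed intracellular inhibitor, had 1 to 9 counts per library. SERPINB10B, known as MENT and described in chicken granulocyte chromatin, had 0 to 1. SERPINB5 (maspin in mammals) had 0 to 28, and SERPINB1, an inhibitor of neutrophil proteases in mammals, was at 0 in all 10 libraries. Levels are given in CPM (counts scaled to libraries of equal size). In a library with no count of a gene, a level below 11.6 to 15.9 CPM could have been missed from counting error alone. None of these 4 had enough counts for the test between ages. High counts in this stretch of the genome were seen for the 3 family members and for none of the 4 measured neighbours.

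Library totals lay between 188271 and 258195 counts. On the first principal component (28.8% of the variance of the 500 most variable genes), replicate 4 at 50 weeks and replicates 1 and 2 at 35 weeks were set off from the rest, with scores of 10.5 to 17.0, while the remaining 7 lay between −7.11 and −1.75. The ages did not overlap on the second component (16.7%), with scores of 2.09 to 7.46 at 50 weeks and −10.5 to 0.939 at 35 weeks. The same 3 libraries lay nearest the other age on it, at −0.468 to 2.09. Fibroblast marker genes summed to 452 to 895 CPM in the 3 libraries set off on the first component and 30.7 to 242 CPM in the other 7. General epithelium markers summed to 213 to 255 CPM in the 3 and 54.9 to 147 CPM in the 7. The sample titles name the shell gland while the tissue labels name the magnum. Of 5 listed shell gland markers 3 were matched. Of these, SPP1 and CALB1 were at 0 in every library and CA2 was counted, giving 3.87 to 29.2 CPM at 50 weeks, against 0 to 35.8 CPM at 35 weeks. The summed levels of all 10 lists of cell type markers overlapped between the ages.

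All 3 members had a lower mean level in hens of 50 weeks, OVALY by the most and OVAL by the least. OVAL had 26989, 17840.5, 19811, 19615 and 20712.5 CPM in replicates 1 to 5 at 50 weeks, against 32993, 26100.5, 27120.2, 25015 and 24771 CPM at 35 weeks. The ages overlapped through a single hen, replicate 1 at 50 weeks, which lay above replicates 2, 4 and 5 at 35 weeks. The means were 20994 ± 3509 CPM at 50 weeks, against 27200.0 ± 3371 CPM at 35 weeks (SD, n = 5 each), a difference of −0.37 on the log2 scale in edgeR's quasi-likelihood model, SE 0.15 (unadjusted p = 0.0239, adjusted p = 0.382 by Benjamini-Hochberg over all 1773 tested genes). OVAL held 2.13% ± 0.332 of all counts at 50 weeks, against 2.68% ± 0.339 at 35 weeks. By raw count it ranked 4 or 5 among all genes in the libraries at 50 weeks, against 3 in every library at 35 weeks. Such a rank also depends on other genes. VPS13A lay above OVAL in replicates 1, 2, 3 and 5 at 50 weeks and below it in every library at 35 weeks. In whole tissue, fewer gland cells and less transcript per gland cell cannot be told apart.

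OVALY had 1680.4, 1406, 1496, 1034 and 1632 CPM in replicates 1 to 5 at 50 weeks, against 2760, 2374, 2414, 2185 and 2451 CPM at 35 weeks. Every hen of 50 weeks lay below every hen of 35 weeks, and replicate 4 at 50 weeks was the lowest of all. The means were 1449.7 ± 256 CPM at 50 weeks, against 2437 ± 208 CPM at 35 weeks (SD, n = 5 each). The log2 fold change of −0.75 (SE 0.15) corresponds to a level 40.5% lower, and edgeR's unadjusted p of 1.6e-04 was the second smallest of all tested genes. Its adjusted p was 0.0984, outside the threshold of 0.05. Without replicate 4 at 50 weeks the log2 fold change was −0.64 with an adjusted p of 0.0347. No other omission of a single hen passed, and the adjusted p reached 0.316 without replicate 2 at 50 weeks.

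OVALX had 514, 526, 548, 576 and 626 CPM in replicates 1 to 5 at 50 weeks, against 674, 879, 835, 778 and 796 CPM at 35 weeks. Here too the ages did not overlap, and the closest pair was replicate 5 at 50 weeks and replicate 1 at 35 weeks, 48.0 CPM apart. The means were 558 ± 44.7 CPM at 50 weeks, against 792 ± 76.6 CPM at 35 weeks (SD, n = 5 each), and the log2 fold change was −0.51 by edgeR (SE 0.13, adjusted p = 0.175). These values rest on 105 to 148 counts per library at 50 weeks and 149 to 201 at 35 weeks.

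**Figure D1:**
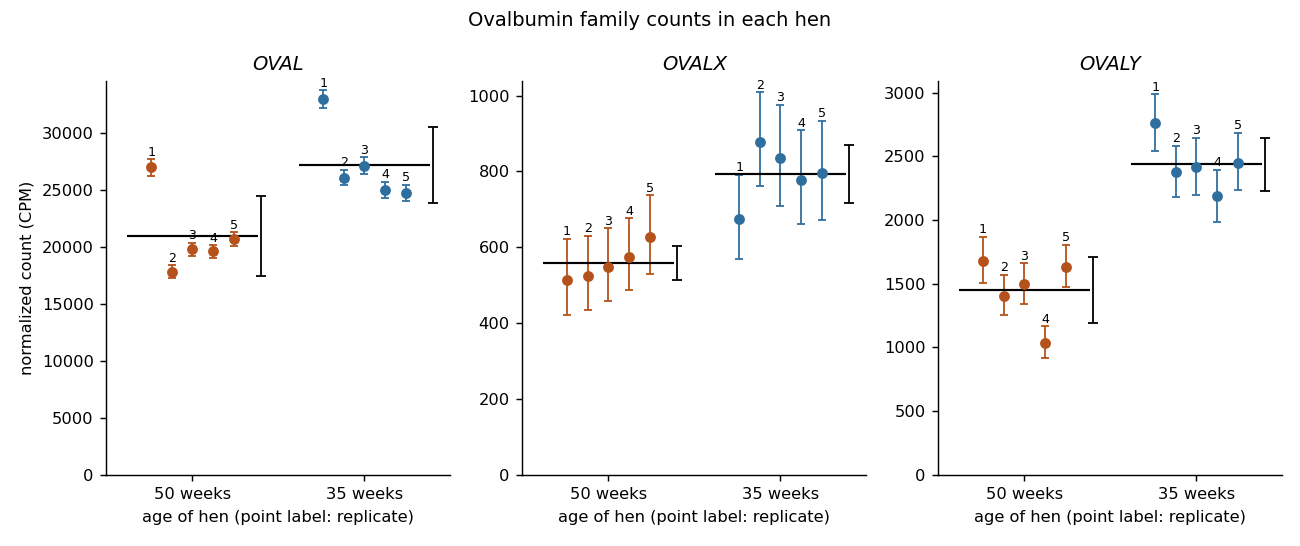
Normalized counts (CPM, vertical axis from 0) of OVAL, OVALX and OVALY in each of the 5 hens at 50 weeks (left) and 35 weeks (right); coloured bars are exact 95% Poisson intervals for counting error, black lines and bars the group mean and SD. OVALX and OVALY do not overlap between the ages, and OVAL overlaps through replicate 1 at 50 weeks (26989 CPM).

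None of the 3 members passed the adjusted threshold, which 1 of all 1773 tested genes did (0.0564%), the mitochondrial import chaperone gene TIMM13. All 3 had an unadjusted p under 0.05 in the lower direction, against 6.03% of tested genes, and 2 of 3 did not overlap between the ages, against 1.13% lower without overlap. OVAL was no longer under 0.05 in edgeR's quasi-likelihood test on leaving out replicate 2 at 50 weeks (unadjusted p = 0.0725, adjusted p = 0.674), replicate 5 at 50 weeks (unadjusted p = 0.0542, adjusted p = 0.637), replicate 1 at 35 weeks (unadjusted p = 0.0812, adjusted p = 0.572) or the 3 libraries that stood apart (unadjusted p = 0.159). That leaves 2 of the 3 members under it. The median log2 fold change was −0.51 over the family and 0.006 over all tested genes. DESeq2 called OVALX and OVALY (1.14% of 1668 genes with an adjusted p), and limma with sample weights called OVALY (0.677% of 1773 genes). Without the 3 libraries that stood apart, edgeR gave log2 fold changes of −0.26 for OVAL (adjusted p = 0.554), −0.53 for OVALX (adjusted p = 0.0818) and −0.59 for OVALY (adjusted p = 0.0366). The authors' deposited table lists 203 genes, none of them a family member, and the smallest absolute log2 fold change in it is 0.957, which is larger than that of any member here.

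The family together held 2.33% ± 0.345 of all counts at 50 weeks, against 3.00% ± 0.352 at 35 weeks (SD, n = 5 each). Among 23 genes listed as coding for other egg white proteins, MUC5B, TENP, LCN8, A2M, CAL and HEP21 were not matched by symbol. The other 17 had a row in the table and 12 had enough counts to be tested. Of these 12, 9 had a negative log2 fold change (49.2% of all tested genes did). An unadjusted p under 0.05 was seen for 6 of them, all lower (6.03% of all tested genes were lower with such a p). None passed the adjusted threshold in the main edgeR fit, while DESeq2 called 2 of the 12 (1.14% of 1668 genes with an adjusted p). Without a filter on low counts edgeR called 3 of 16 listed genes then tested, and 36 of all 15792. Without the 3 libraries that stood apart, 10 of 12 were negative and 3 had an unadjusted p under 0.05. The shares of all genes with such values in that fit were not examined. None of the 12 passed the adjusted threshold in it, while 42 of all 1828 tested genes did. Over all hens the median log2 fold change of the 12 was −0.70. The larger negative log2 fold changes were those of AvBD11, a beta-defensin (−0.998), EXFABP, a siderophore-binding lipocalin (−0.97, SE 0.56), the riboflavin carrier RBP (−0.85), the iron carrier TF (−0.83) and the ovomucoid gene SPINK7 (−0.78). LYZ, which encodes lysozyme (−0.73), and ORM1, an acid glycoprotein gene (−0.66), followed. OVAL and OVALX had a smaller negative fold change than 7 of the 12, and OVALY than 5. The ovostatin gene OVST (−0.21), the clusterin gene CLU (−0.07), the ovoinhibitor gene SPINK5 (0.0028), the cystatin gene CST3 (0.05) and the mucin gene MUC6 (0.47, SE 0.50) completed the list. AVD (avidin) averaged 25.9 ± 12.7 CPM at 50 weeks, against 65.9 ± 43.2 CPM at 35 weeks, and VMO1, of the vitelline membrane outer layer, averaged 18.7 ± 26.0 and 2.13 ± 2.92 CPM at those ages, both with too few counts to be tested.

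**Figure D2:**
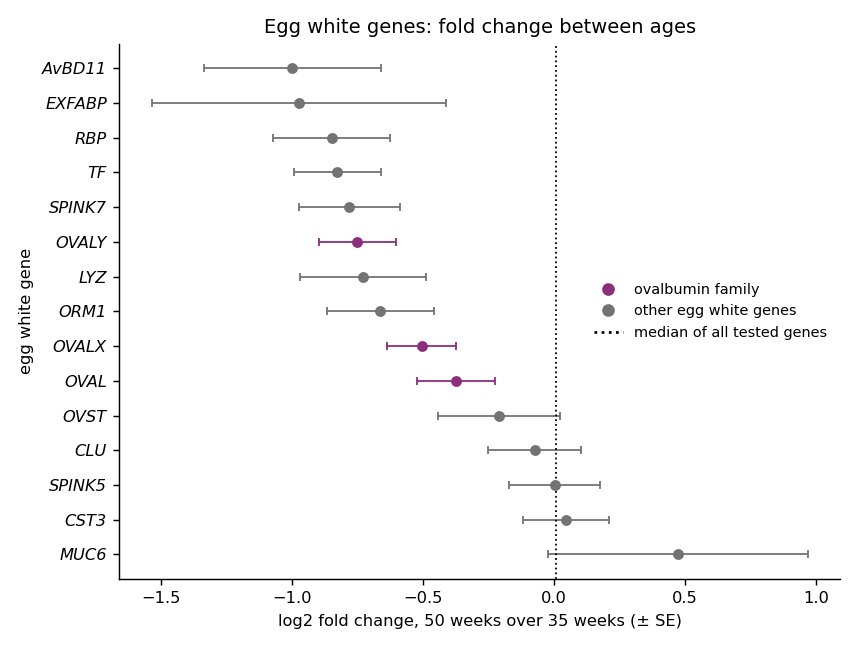
Log2 fold changes, 50 weeks over 35 weeks, with SE (horizontal axis) for the 3 ovalbumin family genes and the 12 other tested egg white genes, ordered by size; the dotted line is the median of all 1773 tested genes. OVALY (−0.75) sits among the egg white genes with the larger negative values, and OVAL (−0.37) and OVALX (−0.51) between those and the genes near 0.

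The ratio of 2 genes within a library needs no scaling between libraries, so ratios were used to ask whether the members changed by the same amount. They are ratios of raw counts, which are not corrected for transcript length, and are read only between hens and ages. OVALY relative to OVAL was lower at 50 weeks. Per OVAL count there were 0.0623, 0.0788, 0.0755, 0.0527 and 0.0788 OVALY counts in replicates 1 to 5 at 50 weeks, against 0.0836, 0.0910, 0.0890, 0.0873 and 0.0990 at 35 weeks. No hen of 50 weeks reached the lowest hen of 35 weeks. The mean log2 ratio differed by −0.39 (exact two-sided permutation p = 0.00794, the smallest that 252 assignments of the hens allow, and p = 0.0476 adjusted over 6 ratios). Of the counts of the family, OVALY made up 6.34% ± 0.990 at 50 weeks, against 8.03% ± 0.442 at 35 weeks (SD, n = 5 each). Without the 3 libraries that stood apart the difference in mean log2 ratio was −0.32 (exact permutation p = 0.0286, the smallest that 7 hens allow, adjusted p = 0.171). Leaving out any single hen of 35 weeks gave adjusted p between 0.0635 and 0.0714, with differences of −0.41 to −0.35.

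For OVALX relative to OVAL, the difference between the ages did not pass the test. Per OVAL count there were 0.0191, 0.0295, 0.0276, 0.0293 and 0.0302 OVALX counts in replicates 1 to 5 at 50 weeks, against 0.0204, 0.0337, 0.0308, 0.0311 and 0.0321 at 35 weeks. Replicate 1 was the lowest hen at either age, and the other 4 of each age lay close together. The difference in mean log2 ratio was −0.12 (exact permutation p = 0.452, adjusted p = 0.543). It was −0.25 when replicate 1 at 35 weeks was left out (exact permutation p = 0.0317, adjusted p = 0.0635), −0.0015 when replicate 1 at 50 weeks was, and −0.26 with the 3 set-off libraries removed (exact permutation p = 0.143, adjusted p = 0.286). OVALX per OVALY count averaged 0.397 ± 0.0940 at 50 weeks, against 0.328 ± 0.0498 at 35 weeks, a log2 difference of 0.26 (exact permutation p = 0.198, adjusted p = 0.397). This difference was 0.35 when replicate 1 at 50 weeks was left out (exact permutation p = 0.0238, adjusted p = 0.0635), 0.13 when replicate 4 at 50 weeks was, 0.16 when replicate 1 at 35 weeks was, and 0.058 with the 3 set-off libraries removed (exact permutation p = 0.571). Neither ratio passed the adjusted threshold in any of these.

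OVAL rose relative to the summed counts of the other egg white genes, taken over the 17 listed genes matched by symbol. Per count of those genes there were 1.89, 1.90, 1.60, 1.82 and 1.90 OVAL counts in replicates 1 to 5 at 50 weeks, against 1.52, 1.19, 1.68, 1.49 and 1.60 at 35 weeks. Only replicate 3 at 50 weeks fell within the range of the hens of 35 weeks. The difference in mean log2 ratio was 0.29 (exact two-sided permutation p = 0.0159, adjusted p = 0.0476). With TF, the most counted of the other genes, taken out of the sum, the difference was 0.20 (exact permutation p = 0.0714, adjusted p = 0.214). With the same 3 libraries left out the difference was 0.19 (exact permutation p = 0.0857, adjusted p = 0.257), and the call was also lost on leaving out any single hen except replicate 3 at 50 weeks (differences 0.21 to 0.33, adjusted p between 0.0635 and 0.0952). OVALX against the same sum differed by 0.17 on the log2 scale (exact permutation p = 0.413, adjusted p = 0.543), and OVALY by −0.096 (exact permutation p = 0.563, adjusted p = 0.563). The family's share of the counts of the family and these matched genes together was 66.6% ± 1.65 at 50 weeks, against 62.4% ± 3.11 at 35 weeks (SD, n = 5 each). Egg white genes that were not matched are not in this sum.

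**Figure D3:**
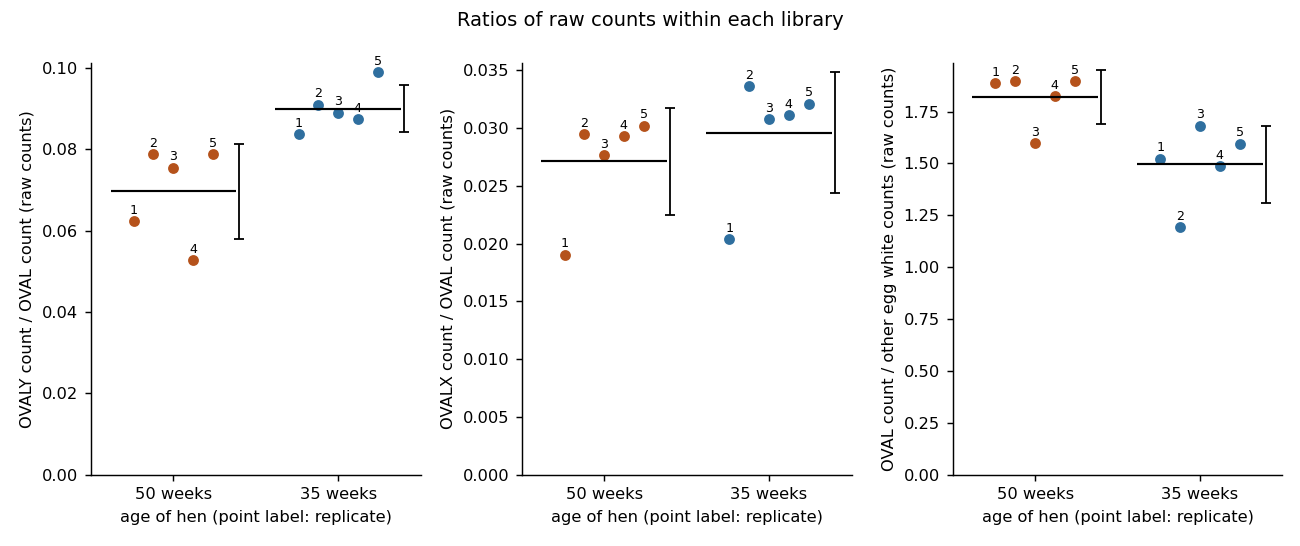
Ratios of raw counts within each library (vertical axes from 0) for OVALY over OVAL, OVALX over OVAL, and OVAL over the sum of the other egg white genes, in the hens of 50 weeks (left) and 35 weeks (right), with the mean and SD in black. OVALY over OVAL does not overlap between the ages, and OVALX over OVAL is lowest in replicate 1 at either age (0.0191 and 0.0204).

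Over all 5 hens of an age, the members differed in how much they varied, and single hens held part of that spread. The coefficient of variation of OVAL was 16.7% at 50 weeks and 12.4% at 35 weeks, where counting error alone gives 1.44% and 1.33%. For OVALY it was 17.7% at 50 weeks and 8.52% at 35 weeks, against 5.50% and 4.46% from counting. OVALX varied by 8.02% at 50 weeks and 9.67% at 35 weeks, where counting alone gives 8.80% and 7.82%. Its spread between hens was close to that of counting, and hen-by-hen differences in OVALX were hardly resolved at this depth.

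Coupling between the members was examined on the deviation of each hen's log2 CPM from the mean of its age, over 10 hens. None of the 3 pairs passed. OVAL and OVALY had a Pearson r of 0.57 (exact permutation p = 0.165, adjusted p = 0.271 over the 3 pairs) and a Spearman rho of 0.62 (exact permutation p = 0.0708, adjusted p = 0.212). Replicate 1 of either age was high in both genes, with deviations for OVAL of 0.38 at 50 weeks and 0.29 at 35 weeks, and for OVALY of 0.23 at 50 weeks and 0.18 at 35 weeks. Replicate 4 at 50 weeks deviated by −0.46 for OVALY and by −0.083 for OVAL. Without the 2 hens farthest from the median of OVAL, which are those replicates 1, r was 0.22 (exact permutation p = 0.682). Leaving out replicate 4 at 50 weeks gave an r of 0.84 (exact permutation p = 0.00556, adjusted p = 0.0167), and leaving out the 3 libraries that stood apart gave 0.75 (exact permutation p = 0.0694, adjusted p = 0.208).

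For OVAL and OVALX no relation passed either, and the deviations of OVALX are close in size to its counting error. Over all 10 hens the pair had a Pearson r of −0.49 (exact permutation p = 0.181, adjusted p = 0.271) and a Spearman rho of −0.091 (exact permutation p = 0.822, adjusted p = 0.822). Replicate 1 of either age, high in OVAL, was low in OVALX, with deviations of −0.11 at 50 weeks and −0.22 at 35 weeks on the log2 scale. Over the other 8 hens r was 0.80 (exact permutation p = 0.0469, not adjusted). OVALX and OVALY had a Pearson r of −0.27 (exact permutation p = 0.448, adjusted p = 0.448) and a Spearman rho of −0.30 (exact permutation p = 0.431, adjusted p = 0.646). Without the 2 hens farthest from the median of OVALX, r was −0.50 (exact permutation p = 0.226). Leaving out the 3 libraries that stood apart gave 0.33 (exact permutation p = 0.66).

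**Figure D4:**
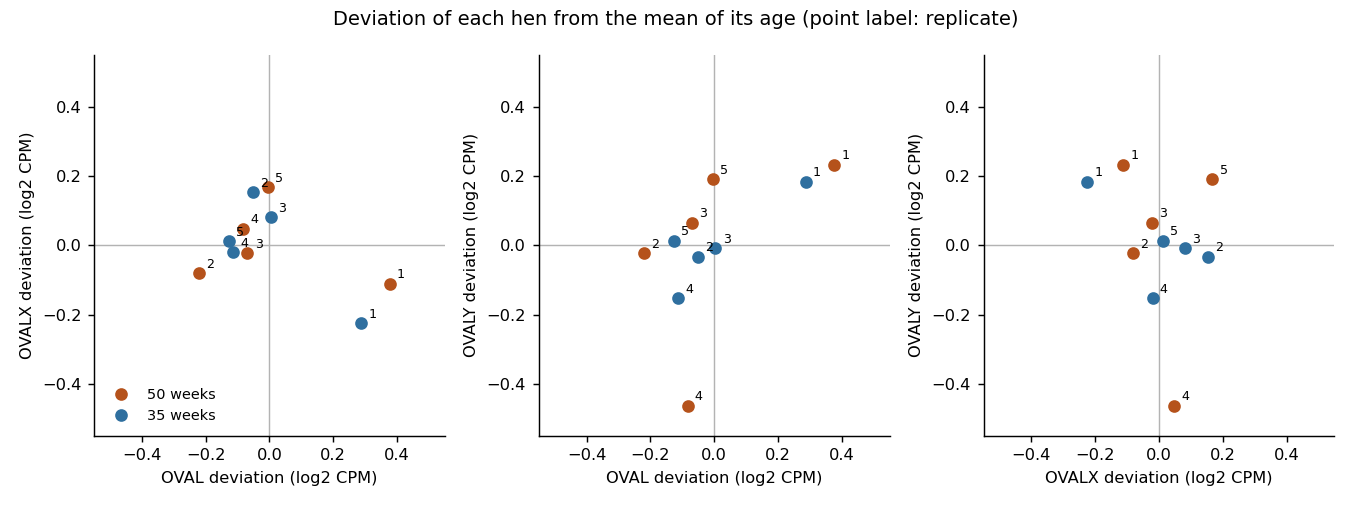
Deviation of each hen from the mean of its age (log2 CPM) for the 3 pairs of family genes, with hens of 50 and 35 weeks in colour and replicate numbers beside the points. In the left panel both replicates 1 lie at high OVAL and low OVALX, apart from the other 8 hens, and in the middle panel the same hens are high in OVAL and OVALY.

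Set against all 628 other tested genes with a mean of at least 50 counts, OVALY ranked 37 by its Pearson r with OVAL (median r over all genes 0.043), and OVALX ranked 559. By r with OVALY, OVAL ranked 65 and OVALX 445. By r with OVALX, OVAL ranked 580 and OVALY 484. The genes with a symbol whose deviations were most like those of OVAL over the 10 hens, from 454, were LYZ (r = 0.87), the mitochondrial tRNA-modifying enzyme gene GTPBP3 (0.84) and SLC35G2 (0.82). For OVALY they were VPS13A, a lipid transfer protein gene (0.92), the phosphatase gene CDKN3 (0.86) and again GTPBP3 (0.86). For OVALX they were TADA2B, of a histone acetyltransferase complex (0.86), PNRC2, a cofactor of RNA decay (0.84), and the cilium transport gene WDR19 (0.72). These correlations share the scaling of each library, were picked as the highest of 454, and are given as descriptions. The deviations of OVALX are also close in size to its counting error. For LYZ, GTPBP3 and SLC35G2, replicate 1 was the highest hen at either age, as it was for OVAL. For TADA2B and PNRC2 it was the lowest at either age, as for OVALX, and for WDR19 only at 35 weeks. No r of these genes was examined without replicate 1. VPS13A, whose hen-by-hen pattern was the most like that of OVALY, averaged 23404 ± 10775 CPM at 50 weeks, against 15131 ± 3991 CPM at 35 weeks. The difference was 0.63 on the log2 scale (adjusted p = 0.634 by edgeR), the opposite sign to OVALY between ages. Replicate 4 at 50 weeks, the lowest hen for OVALY, had 5460 CPM of VPS13A, against 23864 to 33588 CPM in the others of its age. That hen was also the lowest of all for CDKN3 (902 CPM) and GTPBP3 (179 CPM). The r of these genes without that hen was not examined.

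Among the other 12 tested egg white genes, 8 had a positive r with OVAL (median 0.47, against 0.043 over the 628 compared genes). Among them were SPINK7 (0.80), ORM1 (0.76), OVST (0.71), RBP (0.62) and TF (0.59). Replicate 1 at 50 weeks, the highest of its age for OVAL, was also the highest for each of them. At 35 weeks replicate 1 was highest for ORM1, OVST and RBP, and replicate 2 for SPINK7 and TF. These r were not examined without replicate 1. With OVALY 7 were positive (median 0.092, against 0.035 over all), with RBP the highest (0.83). With OVALX 4 were positive (median −0.20, against −0.0098 over all), with CST3 the highest (0.59). The share of positive r over all genes was not examined. Negative values with OVAL were those of MUC6 (−0.78), CST3 (−0.51), AvBD11 (−0.35) and CLU (−0.28). With OVALY they were those of CST3 (−0.80), MUC6 (−0.78), SPINK5 (−0.63), CLU (−0.34) and AvBD11 (−0.29).

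Transcripts of most factors known to act on the ovalbumin gene were too scarce in these libraries to set beside it. Of 19 listed hormone receptors, receptor partners and regulators, 16 had a count and 2 could be tested. ESR1, the oestrogen receptor alpha gene, had 0 to 2 counts per library, NR3C1, the glucocorticoid receptor gene, 0 to 2, and PGR, the progesterone receptor gene, 0 to 10. PGR averaged 33.1 ± 10.3 CPM at 50 weeks, against 13.8 ± 10.6 CPM at 35 weeks. A single library of 35 weeks with no count could have missed 12.8 to 15.9 CPM, a limit that does not hold for a mean over hens. PGR had too few counts to be tested between the ages. NR2F2, a member of the COUP-TF family that was named for binding the ovalbumin promoter, averaged 40.2 ± 23.6 CPM at 50 weeks, against 56.6 ± 18.9 CPM at 35 weeks (−0.47 on the log2 scale, SE 0.42, adjusted p = 0.771 by edgeR). HSP90AA1, a chaperone of steroid receptors, averaged 99.4 ± 44.0 CPM at 50 weeks, against 75.8 ± 22.3 CPM at 35 weeks (0.40, SE 0.33, adjusted p = 0.757).

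Markers of other cells are given as summed CPM, lowest to highest hen. Ciliated epithelium, with 9 of 10 markers counted, summed to 620 to 1258 at 50 weeks and 898 to 1546 at 35 weeks. General epithelium summed to 54.9 to 236 and 85.0 to 255 at those ages, with 4 of 4 matched markers counted. Smooth muscle summed to 120 to 191 at 50 weeks and 110 to 285 at 35 weeks (6 of 6 matched), and endothelium to 492 to 936 and 558 to 977 (6 of 6). Macrophage markers summed to 48.9 to 83.2 at 50 weeks and 34.1 to 58.4 at 35 weeks, with MARCO, C1QA and C1QB at 0 in all libraries. B and plasma cell markers summed to 52.5 to 119 and 42.5 to 89.6 at those ages, with POU2AF1 at 0, and T cell markers to 57.8 to 403 and 134 to 197, with CD3D, CD4 and ZAP70 at 0. Fibroblast markers summed to 30.7 to 895 at 50 weeks and 31.4 to 545 at 35 weeks, and erythrocyte markers to 0 to 39.0 and 0 to 8.96. Their part in the lower counts of the family at 50 weeks was not tested.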

How the data were processed

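Total RNA of whole magnum (TRIzol, RNA integrity number above 7) was made into libraries with a strand-marking kit, as the labels' protocols say. Tools named, without roles or versions, in the submitters' processing notes are HISAT2, Trimmomatic, DESeq2 and Cufflinks, with the build GRCg7b. The sources used here do not give the counter of reads, its strand setting or its treatment of reads shared by paralogs. The values the authors deposited are raw counts for each Ensembl gene. A second deposited table holds log2 fold changes of the authors' own comparison, per the file headers, with no direction stated. Columns were matched to samples through the sample descriptions.

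Family members were found by symbol and their coordinates by NCBI gene ID in a RefSeq table of GRCg7b. Members and gene lists were chosen with earlier results of these data known. The test between ages was edgeR 4.0.16 under R 4.3.3 (filterByExpr, minimum count 10, TMM, robust quasi-likelihood, two-sided, Benjamini-Hochberg over all 1773 tested genes, threshold 0.05), after a check on simulated data; all 3 members passed the filter. The SE given with edgeR fold changes was derived from its F statistic, as the absolute log2 fold change over the square root of F. DESeq2 1.42.0 and limma 3.58.1 were alternatives. CPM used TMM-adjusted totals, except marker sums, which used plain totals. Log2 CPM had a prior count of 2. Ratios and correlations used exact permutation tests (Python 3.11.15, numpy 2.4.6, scipy 1.17.1), the correlations permuting hens within ages over 14400 arrangements. Named genes were the members, the tested egg white genes with a mean CPM of at least 10, the 2 smallest p of the regulator list, the 3 genes most like each member and genes past the threshold; AVD, VMO1, ESR1, NR3C1, PGR and the neighbouring serpins were named after their values were seen. Libraries of an age differed by more than sampling noise (chi-square per degree of freedom 2.67 or more). Tissue pieces or batches beyond the hen are not described in the labels. The p-values rest on the spread between libraries of different hens, which also holds sample handling and counting error.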

Additional observations from a re-analysis of the deposited data

Results flagged for a closer look

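A hen that lies far from the other 4 of its age is listed here; chance alone sets a hen apart in about 1 in 20 groups, and 8 of 64 groups examined held such a hen. Replicate 1 at 35 weeks was high for OVAL (32993 CPM, against 24771 to 27120.2 in the other 4), for the share of the family in all counts (3.61%) and for OVST (208 CPM). The ratio of OVALX to OVAL was low in replicate 1 at 50 weeks (0.0191) and in replicate 1 at 35 weeks (0.0204). LYZ was high in replicate 1 at 50 weeks (1229.7 CPM, against 535 to 687 in the other 4). The ratio of OVAL to the other egg white genes was low in replicate 3 at 50 weeks (1.60), and CDKN3 was low in replicate 4 at 50 weeks (902 CPM, against 1205 to 1303).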

How the results depend on the processing

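The log2 fold changes of the 3 members stayed negative in all 19 alternatives each. OVAL passed in none of them and ranged from −0.47 to −0.29 on leaving out single hens. OVALX passed with DESeq2 (−0.50, adjusted p = 0.0431) and ranged from −0.55 to −0.46 on leaving out single hens. OVALY passed in 6 of its 19 alternatives, with adjusted p from 0.00108 to 0.316 over all of them. It passed without a filter on low counts (−0.72), with a filter of 1 CPM in 5 libraries (−0.72) and with DESeq2 (−0.75). It also passed with limma and sample weights (−0.70), without replicate 4 at 50 weeks (−0.64) and without the 3 libraries that stood apart (−0.59). OVALY ranged from −0.80 to −0.64 on leaving out single hens. Over all genes, 36 passed without a filter, 40 with the CPM filter, 19 with DESeq2, 12 with limma, 42 without the 3 libraries, and 1 to 12 on leaving out single hens. The difference in log2 ratio of OVALY to OVAL ranged from −0.43 to −0.29 on leaving out single hens and was −0.32 without the 3 libraries. That of OVAL to the other egg white genes ranged from 0.21 to 0.34, and was 0.19 without the 3 libraries and 0.20 without TF in the sum. That of OVALX to the other egg white genes turned to −0.066 without the 3 libraries. The r of OVAL with OVALY ranged from 0.42 to 0.84 on leaving out single hens, and that of OVALX with OVALY turned to 0.33 without the 3 libraries; the cause was not tested. Without a filter 11 regulator genes and 1 serpin gene were negative, as 16 and 3 were then tested. In each list 1 gene had an unadjusted p under 0.05 in edgeR's test, and none passed the adjusted threshold. The median log2 fold change over all 15792 genes of that fit was −0.072. The shares of negative genes and of genes with an unadjusted p under 0.05 in it were not examined, so these counts are not read as a result. Same-numbered libraries of the 2 ages did not deviate together (correlations −0.11 to 0.098), so the numbers were not taken as pairs. With the replicate number as a block, 2 genes passed, and OVAL, OVALX and OVALY had log2 fold changes of −0.38, −0.50 and −0.76. The paired difference in log2 ratio was −0.39 for OVALY to OVAL (exact p = 0.0625, the smallest that 5 pairs allow) and 0.29 for OVAL to the other egg white genes (exact p = 0.125), so this block cannot pass the threshold. The 3 libraries were set apart on the first principal component of these same data, and every result without them rests on that split. Excluding them from the share of counts was outside the plan and chosen after seeing the data (difference −0.452 percentage points at 50 weeks, against −0.664 over all hens). Depth limits what can be said of OVALX, the regulators and the neighbouring serpins.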
